A study of Mus musculus with 9 samples.

Results

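The genes described here encode the elastic fibre and the microfibril that carries it: the fibrillins Fbn1 and Fbn2, elastin (Eln), the microfibril-associated proteins Mfap2, Mfap4 and Mfap5, the fibulins Fbln1, Fbln2 and Fbln5, and Emilin2. These 10 genes were taken by name. All 10 were found among the 24537 gene names of the table that compares sham quadriceps with sham heart, in 15 transcript rows. Of the 587 genes in the table that compares quadriceps after transverse aortic constriction (TAC) with sham quadriceps, 7 were members: Fbn1, Mfap4, Mfap5, Fbln1, Fbln2, Fbln5 and Emilin2. Eln, Fbn2 and Mfap2 were not analysed here in TAC.

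Elastic fibres give stretched tissues their recoil. Elastin is deposited onto a scaffold of microfibrils, which are polymers of fibrillin decorated by microfibril-associated proteins, and fibulins and emilins sit on or between both layers and help to join them. In muscle and heart most of these proteins are made by fibroblasts and vascular cells, and microfibrils also hold latent TGF-beta in the matrix.

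RNA sequencing of C57Bl6 mice, given in the study's methods as male C57Bl/6JCrl, gave 3 libraries each of sham heart, sham quadriceps and TAC quadriceps. The surgery was done at 8 weeks of age and the tissue was taken 12 weeks later. TAC narrows the aortic arch, here around a 27 gauge needle, which puts the left ventricle under pressure overload, and the labels of the TAC libraries name cachexia. No group carries a transgene or an added agent, and the controls had surgery without constriction. The same 3 sham quadriceps libraries serve in both comparisons, so the comparisons are not independent. Nothing in the labels says whether sham heart and sham quadriceps libraries came from the same animals.

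The libraries held 33102826 to 38382751 counts in sham heart and 23383452 to 32989108 in sham quadriceps. TAC libraries 1 and 2 held 48614494 and 48999600, and no total was taken for the third TAC library. Its column carries the number 4 where the labels end at 3, so it entered as a TAC replicate with no number of its own. All 7 skeletal muscle fibre markers were higher in quadriceps than in heart and all 6 cardiomyocyte markers were lower, as labelled. Summed adipocyte markers ranged from 15.3 to 117 CPM (counts scaled to library size, here with TMM factors) among the sham quadriceps libraries, so these libraries differed in their adipocyte transcripts. Among the sham heart libraries the cardiomyocyte marker Myl7 ranged from 0.0699 to 43.6 CPM and Nppa from 186 to 457. The sham heart libraries therefore differed in these transcripts, while Myh6, Tnnt2, Tnni3 and Actc1 varied less.

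Every member had a higher level in sham heart than in sham quadriceps, while the order of the members differed between the tissues. Fbln2, a fibulin that binds fibrillin and elastin, had the highest level per transcript length in both. Its RPKM (reads scaled to transcript length and library size) was 14.04, 12.5 and 11.9 in the 3 sham heart libraries and 5.50, 4.03 and 4.95 in sham quadriceps. Both tissues kept Fbln2 clear of the next gene, as its lowest library lay above the highest of the next member.

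In sham heart, with each gene taken by its row of the highest mean count, Fbln2 was followed by Fbn1. Fbn1, the main fibrillin of adult microfibrils, had a mean of 9.02 ± 0.564 RPKM (SD, n = 3). Mfap4 (8.23 ± 1.98), Fbln1 (7.74 ± 1.13), Eln (7.30 ± 1.26) and Emilin2 (5.83 ± 0.613) came next in mean RPKM. From Fbn1 to Emilin2 each of these 5 genes overlapped the next in its library values, while Fbn1 stood clear above Emilin2. Mfap5, Fbln5 and Mfap2 followed at 4.54 ± 0.299, 2.28 ± 0.427 and 0.900 ± 0.150 RPKM, and each stood clear of its neighbours. Fbn2, a fibrillin made mainly before birth, was last at 0.322 ± 0.109 RPKM.

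In sham quadriceps the second place went to Eln at 2.51 ± 0.751 RPKM (SD, n = 3), with Mfap5 (1.92 ± 0.398), Fbn1 (1.88 ± 0.583) and Mfap4 (1.79 ± 0.497) overlapping in a row behind it. Fbln5 (0.748 ± 0.135) and Emilin2 (0.633 ± 0.0823) overlapped each other and lay below that set. Fbln1 fell to a mean of 0.375 ± 0.0497 RPKM, next to Mfap2 at 0.299 ± 0.122, with overlapping values. Fbn2 was close to absent at 0.00606 ± 0.00542 RPKM. Fbln1 had rank 4 of 10 by mean RPKM in heart and rank 8 in quadriceps, with its row of the highest mean count, NM_010180. The heart rank depends on the row, as the other Fbln1 row, NM_001347088, gave 10.2 ± 1.61 RPKM in heart. That mean lies above the heart mean of Fbn1, with overlapping library values. In quadriceps the other row gave 0.338 ± 0.0529 RPKM.

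**Figure D1:**
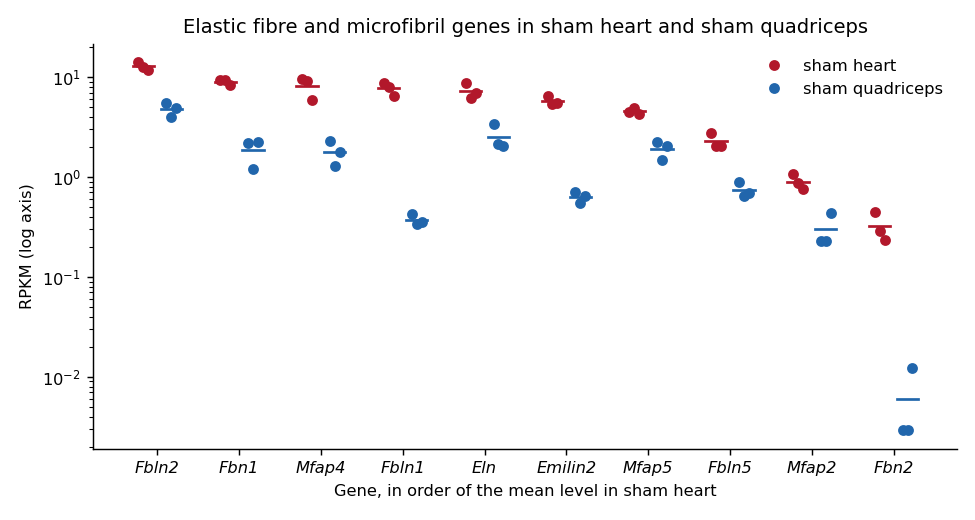
Level of each member in RPKM, on a log axis, in the 3 sham heart and 3 sham quadriceps libraries; points are libraries and lines are group means. Fbln2 leads both tissues, and the distance between the tissues is widest for Fbn2, whose quadriceps libraries lie between 0.00291 and 0.0123 RPKM, and for Fbln1.

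To find which members differ between muscle and heart beyond the spread of libraries, the counts were tested with the edgeR quasi-likelihood test after TMM normalization. All 10 members were lower in sham quadriceps than in sham heart at an adjusted p under 0.05. Among all 24280 transcripts tested, 34.4% were called lower and 32.2% higher. For no member did the libraries of the tissues overlap on the TMM-scaled CPM, against 38.3% of all transcripts with no overlap and lower values in quadriceps. The median log2 fold change of the members (quadriceps minus heart) was -1.18, and that of all transcripts was -0.06. In whole tissue, fewer cells of a type and less RNA per cell cannot be told apart.

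The fibrillins had unequal differences. Fbn1 (transcript NM_007993; chr2:125300594-125507993, minus strand, GRCm38) gave 71.1, 70.5 and 63.5 TMM-scaled CPM in heart and 25.99, 16.3 and 28.9 in quadriceps. The 2 sets did not overlap, and the log2 fold change was -1.53 (SE 0.19, edgeR adjusted p = 7.39e-05). Fbn2 (NM_010181) had 171, 116 and 80 raw counts in heart and 1, 1 and 3 in quadriceps. Its summed counts of 367 and 5, scaled to TMM-adjusted library sizes, gave a heart to quadriceps ratio of 35.9, with a 95% interval of 15.2 to 111. Scaled to library totals the ratio was 60.2 (25.6 to 187), and both intervals cover counting error only. Fbn2 was called lower (edgeR adjusted p = 1.96e-05), but the size of its fold rests on those 5 counts.

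Elastin itself differed less. Eln (NM_007925; chr5:134702593-134747323, minus strand) gave 25.8, 18.1 and 20.5 TMM-scaled CPM in heart and 15.4, 11.2 and 10.2 in quadriceps, a log2 fold change of -0.80 (SE 0.18, edgeR adjusted p = 0.00338). The lowest heart library lay above the highest quadriceps library by a small margin.

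The microfibril-associated proteins ranged from the smallest difference of all members to one near that of Fbn1. Mfap5, which binds fibrillin and was once named MAGP-2, gave 5.12, 5.39 and 4.77 TMM-scaled CPM in heart and 3.93, 2.97 and 3.90 in quadriceps (NM_001347434; chr6:122505845-122529290, plus strand). Its log2 fold change of -0.50 (SE 0.15, edgeR adjusted p = 0.0135) was the nearest to 0 of the 10. The other Mfap5 row, NM_015776, gave -0.40 (SE 0.14, edgeR adjusted p = 0.0355). Mfap4, a fibrinogen-domain protein that binds elastin and fibrillin, gave 7.31 to 11.8 TMM-scaled CPM in heart and 2.84 to 4.38 in quadriceps, and its log2 fold change was -1.47 (NM_001347545; chr11:61485431-61488900, plus strand; SE 0.22, edgeR adjusted p = 2.69e-04). Mfap2, the second fibrillin-binding glycoprotein (MAGP-1), rested on few reads, with 42, 36 and 27 raw counts in heart and 8, 8 and 11 in quadriceps (NM_008546; chr4:141010418-141015984, plus strand). Its log2 fold change was -0.89 (SE 0.34, edgeR adjusted p = 0.0428), and its other row, NM_001161799, was not called and overlapped between tissues (log2 fold change -0.85, edgeR adjusted p = 0.0670). Leaving out any of sham heart libraries 1, 2 and 3 or sham quadriceps libraries 1 and 2 ended the call of Mfap2, with edgeR adjusted p from 0.0506 to 0.145, and leaving out sham heart library 2 ended that of Mfap5 (0.0557), which left 8 members called.

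Among the member fibulins, Fbln1 stood far from Fbln2 and Fbln5. Fbln1, which binds fibronectin, nidogen and elastic fibres, gave 22.7, 20.3 and 16.8 TMM-scaled CPM in heart and 1.73, 1.55 and 1.58 in quadriceps (NM_010180; chr15:85205949-85286535, plus strand). The log2 fold change was -3.62 (SE 0.16, edgeR adjusted p = 8.63e-08), a 12.3-fold lower level. Its other row, NM_001347088, gave a log2 fold change of -4.14 (SE 0.18). Fbln2 (NM_007992; chr6:91212455-91272540, plus strand) differed by -0.66 (SE 0.11, edgeR adjusted p = 6.68e-04) and Fbln5 (NM_011812; chr12:101746565-101819055, minus strand), which tethers elastin to cell surface integrins and microfibrils, by -0.86 (SE 0.16, edgeR adjusted p = 0.00109).

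Emilin2, a glycoprotein of the elastin and microfibril interface, gave 19.8, 16.1 and 16.7 TMM-scaled CPM in heart and 3.31, 2.93 and 3.33 in quadriceps (NM_145158; chr17:71252172-71311978, minus strand). This was a 5.50-fold lower level, with a log2 fold change of -2.46 (SE 0.13, edgeR adjusted p = 3.18e-07). The study's thresholds for this comparison, a log2 fold change past 2 and an unadjusted p under 0.05, selected genes higher in quadriceps. Applied here in the other direction, they called 3 of the 10 members lower (Fbn2, Fbln1 and Emilin2), against 8.64% of all transcripts.

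**Figure D2:**
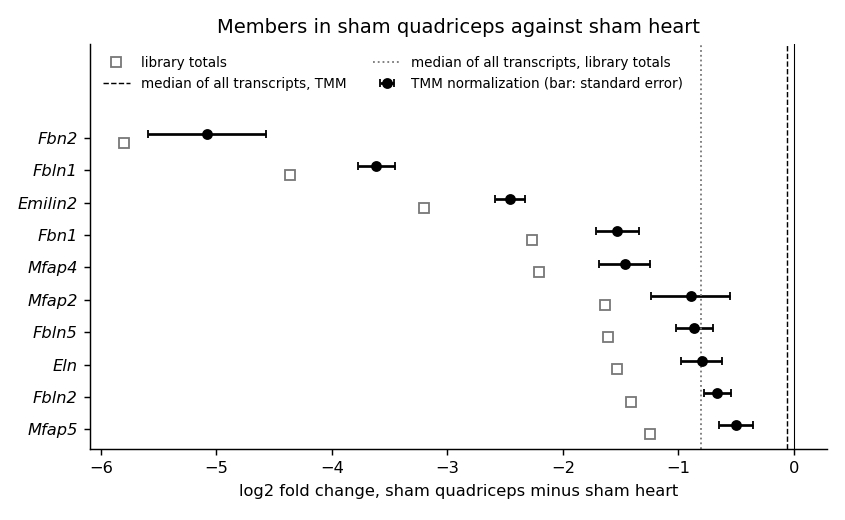
Log2 fold change of each member, sham quadriceps minus sham heart, with TMM normalization (circles, bars are standard errors) and with library totals (squares); dashed and dotted lines are the medians of all transcripts under each scaling. Under each scaling every member lies to the left of the median of that scaling, from Fbn2 at -5.08 with TMM to Mfap5 at -0.50. The size of the Fbn2 fold rests on 5 counts summed over the quadriceps libraries.

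Library totals in place of TMM moved the median of all transcripts from -0.06 to -0.80 and that of the members from -1.18 to -1.92. All 10 members were called lower with totals, where 62.6% of all transcripts were.

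The 300-base windows around the RefSeq start of 3 members are shown since Fbn1 and Emilin2 were lower in both comparisons, and Fbln1 was lower in quadriceps than in heart but not called in TAC. They run from 250 bases before to 50 bases after the start (RefSeq, build GRCm38.p6), and 6 of the 10 members had an entry. Both strands were searched for the GC box, spelled GGGCGG, which is a binding sequence of Sp1. They were also searched for the CCAAT box by those letters. The remaining motifs were a TATA box, read as TATAAA, and the AP-1 site, read as TGANTCA. Capitals mark the matches.
Fbn1 promoter, chr2:125506389-125506688, minus strand: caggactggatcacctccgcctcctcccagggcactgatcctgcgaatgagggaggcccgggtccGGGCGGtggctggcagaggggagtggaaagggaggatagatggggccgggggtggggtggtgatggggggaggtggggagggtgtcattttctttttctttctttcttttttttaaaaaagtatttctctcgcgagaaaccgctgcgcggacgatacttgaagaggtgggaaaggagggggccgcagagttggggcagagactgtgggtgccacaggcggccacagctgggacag
Emilin2 promoter, chr17:71310962-71311261, minus strand: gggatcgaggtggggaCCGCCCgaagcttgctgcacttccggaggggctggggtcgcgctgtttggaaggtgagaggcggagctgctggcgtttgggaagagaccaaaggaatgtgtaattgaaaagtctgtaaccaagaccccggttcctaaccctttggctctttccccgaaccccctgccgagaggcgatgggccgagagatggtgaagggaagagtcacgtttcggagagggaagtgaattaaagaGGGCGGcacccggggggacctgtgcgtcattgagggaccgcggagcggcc
Fbln1 promoter, chr15:85205699-85205998, plus strand: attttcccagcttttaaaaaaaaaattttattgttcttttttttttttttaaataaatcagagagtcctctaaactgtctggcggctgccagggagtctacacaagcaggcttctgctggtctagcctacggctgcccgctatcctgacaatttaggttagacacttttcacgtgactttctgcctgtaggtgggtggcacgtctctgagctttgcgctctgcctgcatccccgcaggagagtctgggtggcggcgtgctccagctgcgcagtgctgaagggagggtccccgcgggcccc
The Fbn1 window held 1 GC box, the Emilin2 window held 2, and the Fbln1 window held none of the 4 motifs. A GC box was found in 35.7% of 32851 promoter windows of the same length, a CCAAT box in 37.4%, a TATA box in 13.6% and an AP-1 site in 7.81%. These matches describe the letters only.

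Other genes of the same pathway, 33 in a fixed list of crosslinking enzymes, latent TGF-beta binding proteins, ADAMTS-like proteins and relatives, were mixed. Of 31 tested, 19 were lower, 5 higher and 7 not called, with a median log2 fold change of -1.22. Adamtsl2, a binder of latent TGF-beta binding protein, had the largest fall at -4.09 (SE 0.36), followed by the hemicentin Hmcn1 at -3.35 (SE 0.27) and Ltbp4 at -3.22 (SE 0.11). Fbln7 (3.27, SE 0.22), the crosslinking enzyme Lox (2.40, SE 0.21) and Adamtsl1 (2.02, SE 0.22) were higher in quadriceps.

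Endothelial markers and part of the fibroblast markers were lower in quadriceps too. Of 12 fibroblast markers, 7 were lower in quadriceps and 5 were not called, and Tcf21, a marker of cardiac fibroblasts, was at 0 counts in the quadriceps libraries. Summed fibroblast markers ranged from 1175 to 1343 TMM-scaled CPM in heart and from 677 to 894 in quadriceps. All 6 endothelial markers were lower, with sums of 457 to 491 in heart and 139 to 158 in quadriceps. Of 6 smooth muscle markers, 2 were lower, 2 higher and 2 not called, and 7 of 8 tendon markers were higher. Of 7 macrophage markers 6 were lower, the 2 epicardial markers that could be tested were lower, and all 5 adipocyte markers were higher. The part of cell makeup in the members' differences was not tested.

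The study compared TAC with sham quadriceps over all genes and then filtered for secreted-protein genes. The 587 genes available here for TAC are a selection of secreted-protein genes. For TAC, "all genes" means this list and not the whole transcriptome. In this list the microfibril genes Fbn1, Mfap4 and Mfap5 and the gene Emilin2 were lower after TAC. None of the member fibulins Fbln1, Fbln2 and Fbln5 passed the test. At an edgeR adjusted p under 0.05, 4 of 7 members were lower and none higher, where 11.9% of the 586 genes tested were lower and 17.7% higher. The libraries did not overlap, with lower values in TAC, for the same 4 members, against 21.2% of all genes. The median log2 fold change of the members (TAC minus sham) was -0.98, beside 0.03 over all genes. TMM was computed over these same listed genes, which places their median near 0. With library totals of 5 libraries their median was -0.63 and that of the members -1.65. Counts below are normalized to TMM-scaled library size over the listed genes.

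Fbn1 gave 575, 394 and 703 normalized counts in the sham libraries and 114, 175 and 113 in the TAC libraries. Every TAC library lay below every sham library. Its mean went from 557 ± 155 to 134 ± 35.5 (SD, n = 3), a 4.15-fold lower level with a log2 fold change of -2.05 (SE 0.31, edgeR adjusted p = 0.00449).

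Mfap4 had the largest difference of the members. It gave 95.9, 68.7 and 90.7 normalized counts in sham and 8.72, 19.6 and 10.01 in TAC. The mean went from 85.1 ± 14.4 to 12.8 ± 5.93 (SD, n = 3), a log2 fold change of -2.72 (SE 0.37, edgeR adjusted p = 0.00288). The TAC values rest on 9, 20 and 10 raw counts.

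Emilin2 gave 73.2, 70.7 and 81.1 normalized counts in sham and 35.8, 26.4 and 36.1 in TAC, a log2 fold change of -1.19 (SE 0.26, edgeR adjusted p = 0.0136). Mfap5 gave 83.7, 71.7 and 93.5 in sham and 48.4, 34.3 and 43.1 in TAC, a log2 fold change of -0.98 (SE 0.25, edgeR adjusted p = 0.0220). In both genes every TAC library lay below every sham library. Their calls changed when single libraries were left out: without sham library 1, 2 or 3 Mfap5 was not called (edgeR adjusted p = 0.0879, 0.0542 and 0.107), and without sham library 1 or 3 Emilin2 was not called (0.0581 and 0.0611), so that 2 members were called without sham library 1 or 3. With the study's rule for TAC, a log2 fold change of 1 or more in size and an unadjusted p under 0.05, 3 of 7 members were lower (Fbn1, Mfap4 and Emilin2), against 12.6% of all genes.

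The 3 member fibulins were not called. Fbln2 gave 650.3, 600.3 and 714 normalized counts in sham and 608, 488 and 423 in TAC. Only TAC library 1 lay within the sham range, and the log2 fold change was -0.37 (95% interval -0.88 to 0.14, edgeR adjusted p = 0.250). Fbln5 gave 141, 126 and 132 in sham and 140.4, 116 and 74.1 in TAC, a log2 fold change of -0.27 (95% interval -0.91 to 0.37, edgeR adjusted p = 0.505). Fbln1 gave 38.2, 37.4 and 38.5 in sham and 28.1, 26.4 and 40.1 in TAC, with the TAC library numbered 4 above every sham library and the others below. Its log2 fold change was -0.27 (95% interval -0.95 to 0.41, edgeR adjusted p = 0.525).

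**Figure D3:**
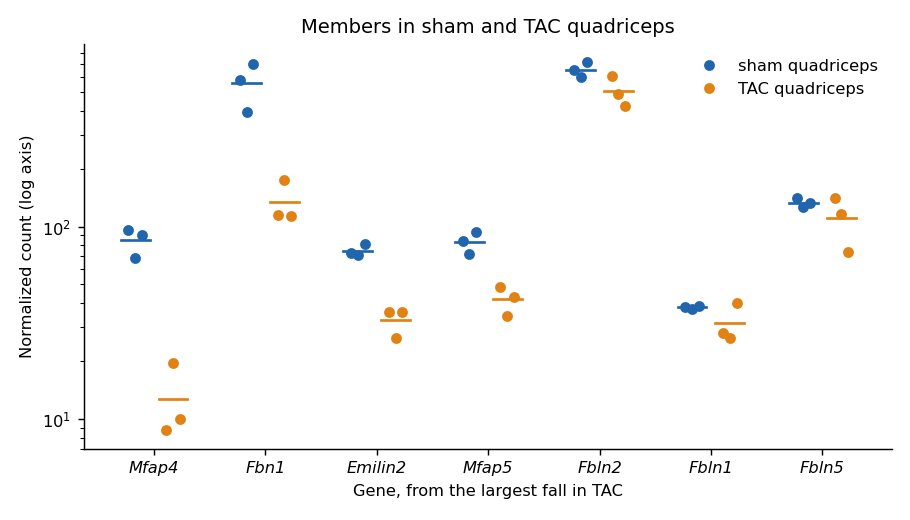
Normalized counts, on a log axis, of the 7 members in 3 sham and 3 TAC quadriceps libraries; points are libraries and lines are group means. TAC points of Mfap4, Fbn1, Emilin2 and Mfap5 lie below all sham points of the same gene, and those of the 3 fibulins overlap with sham.

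The level per transcript length changed its order. In sham quadriceps Fbln2 stood first with 152 normalized counts per kilobase, then Mfap5 (59.4), Fbn1 (56.7) and Mfap4 (56.6), which overlapped one another in sequence. In TAC, Fbln2 stayed first at 117 and Mfap5 second at 30.0, clear of its neighbours, while Fbn1 (13.7) and Mfap4 (8.48) fell behind Fbln5 (18.8), with overlap between neighbours from Fbln5 on. Summed over the 7 members, the normalized counts were 1657, 1369 and 1852 in sham and 984, 887 and 739 in TAC.

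The number of members called also changed with the scaling. Library totals were recovered for 5 of the 6 libraries, all but the TAC library numbered 4. On these 5 libraries TMM gave 4 of 7 members lower, where 12.1% of all genes were, and totals gave 6 of 7, where 30.7% were. The median of all genes was -0.08 with TMM and -0.63 with totals on the log2 scale. Without that library Fbln1 stood at -0.56 with TMM (edgeR adjusted p = 0.200). Relative to the median gene the log2 fold changes with totals were -2.61 for Mfap4, -1.97 for Fbn1, -1.28 for Emilin2, -1.02 for Mfap5, -0.49 for Fbln1, -0.27 for Fbln2 and -0.07 for Fbln5. Fbln1 (edgeR adjusted p = 0.0463) and Fbln2 (0.0333) passed with totals and Fbln5 did not (0.0927). DESeq2's size factors gave 4 of 7, where 12.6% of all genes were lower.

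**Figure D4:**
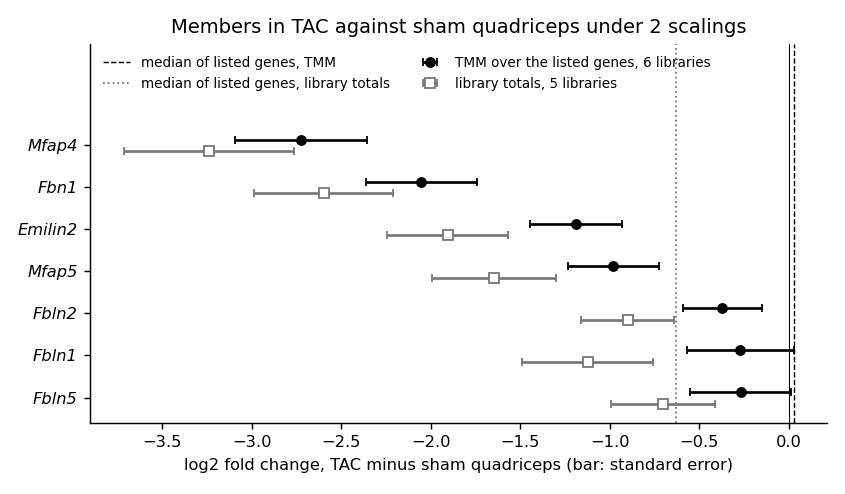
Log2 fold change of the 7 members, TAC minus sham quadriceps, with TMM over the listed genes (circles) and with library totals of 5 libraries (squares); bars are standard errors, and dashed and dotted lines are the medians of the listed genes under each scaling. The order from Mfap4 to Mfap5 holds under both scalings, and the fibulins lie nearest to the median gene of each.

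A ratio within a library does not depend on the scaling. Each member was therefore divided by Fbln2 per transcript length, with Fbln2 chosen after its values were seen. Fbn1 stood at 0.388, 0.288 and 0.432 of Fbln2 in sham quadriceps and at 0.0825, 0.158 and 0.118 in TAC, a difference in log2 ratio of -1.66. Mfap4 stood at 0.423, 0.328 and 0.365 in sham and at 0.0411, 0.115 and 0.0680 in TAC, a difference of -2.43. These ratios did not overlap between the groups, and neither did those of Emilin2 (difference -0.82) and Mfap5 (-0.61). Of all listed genes 10.3% had a lower ratio in TAC with no overlap. Fbln1 and Fbln5 kept ratios that overlapped, with differences of 0.09 and 0.07. With 3 libraries a group the exact permutation test, two-sided, cannot go below p = 0.1, which Fbn1, Mfap4, Mfap5 and Emilin2 reached (0.15 after Benjamini-Hochberg adjustment over 6 genes), while Fbln1 and Fbln5 gave 0.9 and 0.6.

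The same ratio in the sham tissues gave another pattern. Quadriceps minus heart, the log2 ratio to Fbln2 differed by -2.99 for Fbln1, -1.83 for Emilin2, -0.94 for Fbn1, -0.84 for Mfap4, -0.23 for Fbln5 and 0.22 for Mfap5, and none of the 6 overlapped between tissues. Over all transcripts, 18.9% had a lower ratio in quadriceps with no overlap and 52.9% a higher one. The difference of Fbln1 was large between tissues and near 0 after TAC, and that of Mfap4 was -0.84 between tissues and -2.43 after TAC. The sham quadriceps libraries enter both differences.

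**Figure D5:**
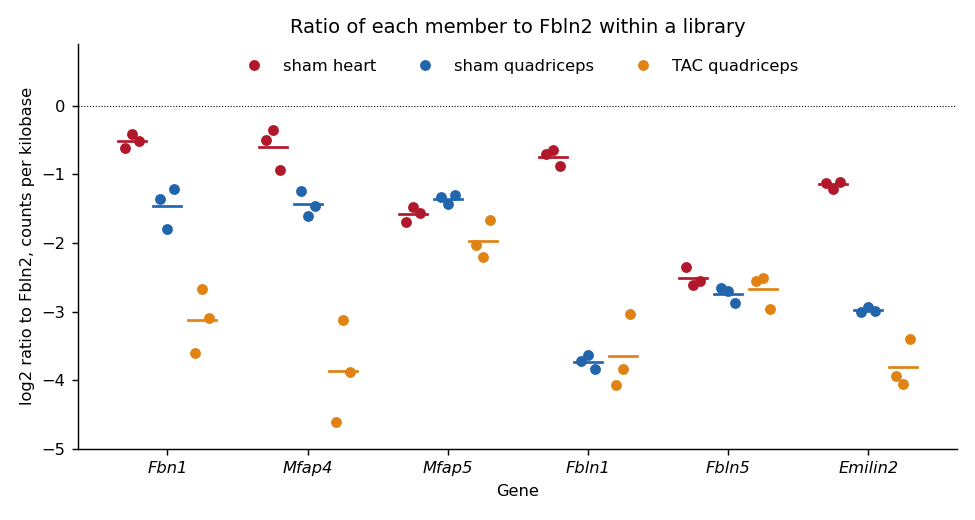
Log2 ratio of 6 members to Fbln2, counts per kilobase within a library, in sham heart, sham quadriceps and TAC quadriceps; points are libraries and lines are group means. Fbn1, Mfap4 and Emilin2 step down from heart to quadriceps to TAC, Fbln1 drops from heart to quadriceps only, and Fbln5 stays between -2.96 and -2.36 in all 9 libraries.

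The other pathway genes gave fewer calls in TAC. Of 33 listed, 13 were in the table, 3 of which were lower, 1 higher and 9 not called, and their median log2 fold change was -0.02. The proteoglycan Vcan, which binds fibrillin, was at -2.34 (SE 0.47, edgeR adjusted p = 0.00997), the crosslinking enzyme Loxl2 at -1.52 (SE 0.31, adjusted p = 0.0116) and the fibulin relative Efemp1 at -1.07 (SE 0.27, adjusted p = 0.0217). Adamtsl4, which binds fibrillin, was higher at 0.96 (SE 0.24, edgeR adjusted p = 0.0206), a call lost with library totals (0.195). With totals 7 of the 13 were lower and none higher.

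Most fibroblast markers in the TAC table were lower as well. Of 12, 9 were in the table, with 7 lower and 2 not called. The collagen genes Col1a1, Col1a2 and Col3a1 were among the lower ones, while Dcn (log2 fold change 0.17) and Gsn (0.36) were not called. Over the 9 markers the summed normalized counts ranged from 15872 to 19152 in sham and from 10364 to 18196 in TAC. Dcn (mean 6474 in sham and 7301 in TAC) and Gsn (4368 and 5624) had the largest counts in these sums, which therefore hide the 7 lower markers. Of 4 macrophage markers 3 were lower, and of 4 tendon markers 2. Both endothelial markers in the table, Pecam1 and Vwf, were higher with TMM and not called with totals. Neither adipocyte marker in the table was called, nor was Ckm, and no smooth muscle or epicardial marker was in the table. The part of cell makeup in the members' differences was not tested.

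Over the 6 quadriceps libraries the genes outside the member list whose log2 normalized counts followed Fbn1 most closely were Col5a2 (Pearson r = 0.991), Col3a1 (0.989) and Pcsk6 (0.988). These correlations describe libraries that share the difference between sham and TAC. Col5a2, a fibrillar collagen, had a log2 fold change of -1.76 (SE 0.24), Col3a1 of -3.95 (SE 0.33) and the convertase Pcsk6, which was not called, of -0.59 (SE 0.23). Eln, the other gene set for this measure, was not analysed in TAC.

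Several members share positions with genes on the opposite strand in the GENCODE annotation of GRCm38: Fbn1 with Gm9913, Fbn2 with Gm26507, Eln with Gm30003, Mfap4 with Mapk7 and Emilin2 with Gm26561. Whether the counting used strand is not stated, so reads in the shared stretches cannot be told apart. Rows of the same gene are not separate evidence.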

How the data were processed

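Raw counts per RefSeq transcript and RPKM values were deposited by the authors, who trimmed the single-end reads with Trim Galore, aligned them to mm10 with STAR and counted them with Rsubread. Log2 fold changes, F scores and p-values of the authors' edgeR comparisons also stand in both tables and were not used. Transcript length, which the authors deposited as a further column, served for values per kilobase. The number of per-sample columns left unused is 1, the RPKM of the TAC library numbered 4. In 111 of the 587 rows of the TAC table the authors' statistics belong to another transcript than the counts.

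Counts were tested with edgeR 4.0.16 (quasi-likelihood, TMM, R 4.3.3) where 2 or more libraries exceeded 5 counts. This left 586 genes and 24280 transcripts, and p-values were adjusted by Benjamini-Hochberg over all of them. The replicates are described as biological in the study. The labels do not say that they are separate animals, so the p-values measure the spread between these libraries. Replicates differed by more than sampling noise (lowest chi-square over its degrees of freedom 7.10), and none was counted as a duplicate. Alternatives were DESeq2 1.42.0, other scalings and count filters, the study's thresholds, the replicate number as a block and leaving out each library. The ratio to Fbln2, the totals ratio of Fbn2, TMM on 5 libraries and the fit of 4 libraries without a block were added once values had been seen. The fitting code was tested on simulated data.

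The members and the gene lists were chosen with earlier results of these data known. Genes were named by rule: all 10 members, the 3 largest rises and falls among called pathway genes and the 3 genes most like Fbn1, computed with a pseudocount of 0.5. Marker genes are named as examples. For members with several rows in the sham comparison, the row with the highest mean count is given first. The TAC results and all ratios to Fbln2 use the other rows of Mfap4 (NM_029568), Mfap5 (NM_015776) and Fbln2 (NM_001081437). Positions come from GENCODE vM21, where 13 of 15 member transcripts were matched, and promoters from RefSeq. Python 3.11.15 was used outside R.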

Additional observations from a re-analysis of the deposited data

How the results depend on the processing

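The members' fitted log2 fold changes stayed below 0 under every alternative fit that was run, while the ratio to Fbln2 was above 0 for Fbln1 and Fbln5 in TAC and for Mfap5 between the sham tissues. In TAC, 79 of the members' values kept their side of the threshold, 9 lost the call and 2 gained it, and in heart 120 kept it and 8 lost it. Listed genes lower in TAC numbered 70, and 180 with library totals or 39 with 4 libraries numbered 1 and 2 without a block. Genes higher in TAC numbered 104, and 20 with totals, 49 with 4 libraries without a block, 56 with the replicate block on these 4, and 67 by the study's criterion. Members lower in TAC went from 4 to 2 with the replicate block and to 2 without it in the same 4 libraries. Transcripts lower in quadriceps than heart numbered 8354, and 15203 with totals, 2097 by the study's thresholds taken in either direction and 5059 with 1 transcript per gene. Those higher numbered 7828, and 3241, 1699 and 4744 under the same settings. By these thresholds 3 members were lower in quadriceps than in heart. Leaving out each library gave 35 to 102 genes lower and 25 to 113 higher in TAC, 2 to 4 members lower in TAC, 7409 to 8357 transcripts lower and 6987 to 8146 higher in quadriceps than in heart, and 8 to 10 members lower. Genes lower in TAC fell to 35 and 38 without sham libraries 1 and 3, and genes higher fell to 25, 35 and 34 without sham libraries 1, 2 and 3, to 62 without TAC library 1 and to 65 without the TAC library numbered 4. Mfap2 also lost its call in heart with DESeq2 (adjusted p = 0.106) and with the replicate block (edgeR adjusted p = 0.0648). Same-numbered libraries did not deviate together (r = 0.02, -0.10 and -0.01 for the sham tissues and 0.06 for TAC). With so few libraries, and with different tissues in the sham comparison, this cannot settle whether the numbers pair the samples. The cause of these shifts was not tested, except that fewer libraries or transcripts entered where stated. Depth limits Fbn2 and Mfap2 in quadriceps and Mfap4 in TAC.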

Other observations

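The 5 members with 2 transcript rows allowed a look at whether the rows moved together between the sham tissues, chosen after the data were seen. For Fbln1 the counts of NM_001347088, divided by those of NM_010180 in the same library, were 0.918, 0.915 and 0.896 in sham heart and 0.596, 0.757 and 0.536 in sham quadriceps. The tissues did not overlap, and the quadriceps values rest on 15 to 28 counts of NM_001347088. In GENCODE the transcripts hold 15 and 17 exons and share 80.6% and 50.1% of their bases. Mfap5 (NM_015776 over NM_001347434) gave 0.930, 0.889 and 0.912 in heart and 0.963, 1 and 0.986 in quadriceps, and Fbln2 (NM_001081437 over NM_007992) gave 0.969 to 0.981 in heart and 1 to 1.01 in quadriceps. The Fbln2 rows differ by 142 bases. Mfap2 and Mfap4 overlapped between tissues. The exact permutation test, two-sided, gave 0.1 for Fbln1, Fbln2 and Mfap5, its smallest p with 3 libraries a group, and 0.167 after Benjamini-Hochberg adjustment over the 5 genes. The share of all genes with several rows whose ratios do not overlap between these tissues was not determined. Whether the members differ from other genes in this is therefore not known. How the counting shared reads between overlapping transcripts is not given in the sources used here, and the part of that step in these ratios was not tested.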
